A study of Mus musculus with 12 samples.

Results

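The nuclear genes of the mitochondrial respiratory chain were followed in spleen and duodenum of wild type C57BL/6J mice given an antibody that activates the lymphotoxin beta receptor (LTbR), a receptor of stromal and epithelial cells that drives lymphoid tissue organisation. A row of the count tables was taken as a member when its symbol began like a subunit of complex I (Nduf), complex II (Sdh), complex III (Uqcr), complex IV (Cox4 to Cox8) or complex V (Atp5) and when it held at least 60 counts over all 12 libraries. This gave 81 members of 23329 rows, of which 37 belong to complex I, 4 to complex II, 8 to complex III, 15 to complex IV and 17 to complex V. The name pattern alone matched 84 rows. Cox8b with 24 counts, and Cox7b2 and Cox8c with 0 counts, fell below the minimum, and the members nearest above it were Cox4i2 with 276, Ndufa4l2 with 748, Cox6a2 with 1253 and Cox6b2 with 1820 counts. The rule uses names and summed counts and no expression difference, but it was chosen with earlier results of these data known. The pattern goes by name, so it also takes in Atp5s and Atp5sl, which are assembly or coupling proteins and not ATP synthase subunits, Cox7a2l, a supercomplex factor, and Ndufa4, which is now counted with complex IV but is kept here with complex I.

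The groups were duodenum under AC H6, duodenum under isotype antibody, spleen under AC H6 and spleen under isotype antibody, with 3 libraries in each. AC H6 is an agonist antibody against LTbR, and the isotype antibody is its control without that specificity. The mice were 2 months old, received 100 ul of antibody at 1 mg/ml and were sampled after 24 hours, and all groups share the wild type genotype. The labels do not say whether each library is a separate animal or whether the spleen and duodenum libraries come from the same mice, so the p-values measure the spread between these libraries. The libraries held 13874091 to 45847467 counts.

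The respiratory chain passes electrons taken from fuel to oxygen and uses the energy to pump protons across the inner mitochondrial membrane. Complex I takes electrons from NADH and complex II, which is also succinate dehydrogenase of the citric acid cycle, takes them from succinate. Complex III hands them to cytochrome c, complex IV to oxygen, and complex V, ATP synthase, lets the protons back to make ATP. Absorptive cells of the small intestine use this ATP to drive nutrient and ion transport. The nuclear genes of the chain are known targets of the transcription factors NRF1 and GABP and of coactivators of the PGC-1 family. The subunits encoded in mitochondrial DNA were not analysed here.

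A short stretch before the transcription start is shown for 1 member of each complex that holds letters of NRF1 or GABP there, the best known elements of such promoters, and for Cox7a1, whose values stand apart below. Under AC H6 in the duodenum Sdhd, Uqcr11 and Cox7a1 fell, while Ndufa11, Cox6a1 and Atp5k were not called. The genes shown are a selection, and a link between these letters and the response was not tested. RefSeq promoter windows on GRCm38.p6 (250 bases before the start and 50 after it) were at hand for 65 of the 81 members. The capitals mark the GABP (ETS) letters CCGGAAG, or CTTCCGG on the other strand, and the NRF1 element, the 10 capitals of the Ndufa11 line, which read alike on both strands. The elements do not overlap in these stretches. Each line gives the strand of the gene 5′ to 3′ and ends at the base before the start.
Ndufa11, complex I, chr17:56717682-56717761, plus strand: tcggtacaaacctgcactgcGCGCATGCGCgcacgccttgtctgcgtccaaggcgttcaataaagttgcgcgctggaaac
Sdhd, complex II, chr9:50603850-50603929, minus strand: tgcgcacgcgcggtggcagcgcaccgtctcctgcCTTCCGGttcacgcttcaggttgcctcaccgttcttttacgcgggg
Uqcr11, complex III, chr10:80406822-80406901, minus strand: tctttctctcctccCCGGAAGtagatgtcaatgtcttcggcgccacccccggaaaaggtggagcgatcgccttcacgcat
Cox6a1, complex IV, chr5:115348959-115349128, minus strand: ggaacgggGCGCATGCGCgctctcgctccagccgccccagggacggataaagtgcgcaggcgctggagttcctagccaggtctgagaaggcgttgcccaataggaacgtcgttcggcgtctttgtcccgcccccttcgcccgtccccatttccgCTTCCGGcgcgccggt
Atp5k, complex V, chr5:108434400-108434479, minus strand: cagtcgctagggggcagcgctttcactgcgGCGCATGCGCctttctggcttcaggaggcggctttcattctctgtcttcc
Cox7a1, complex IV, chr7:30184091-30184170, plus strand: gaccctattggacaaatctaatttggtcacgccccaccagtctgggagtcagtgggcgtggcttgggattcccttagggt
The stretch of Cox7a1, the muscle and heart isoform of its subunit, held neither set of letters. A gene was counted when any of its windows held the letters. Over the whole windows, 5 of the 65 members (7.69%) held the NRF1 letters against 1.07% of 27025 mouse genes with windows. The GABP letters were held by 16 members (24.6%) against 9.93% of these genes. The ERR letters TCAAGGTCA were found in 2 members (3.08%), Atp5g3 and Sdhd, against 0.466% of all genes with windows. The YY1 element was found in 5 members (7.69%), against 0.755% of all genes with windows. CCAAT was found in 44.6% of the members against 41.1% of these genes. These matches describe the letters in the windows and not binding.

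Under AC H6 the duodenum held less respiratory chain mRNA than under isotype antibody, and the lower level ran through all 5 complexes. The levels summed over the 81 members were 18634, 17357 and 18068 CPM in the AC H6 libraries, against 23408, 22576 and 21259.5 CPM in the isotype libraries (CPM, counts relative to a library size that was TMM-scaled over the 12 libraries). The 2 groups did not overlap, and the AC H6 mean was 19.6% below the isotype mean. As a plain share of all counts, without scaling, members made up 1.52% to 1.71% in the AC H6 libraries and 1.84% to 1.89% in the isotype libraries. In whole tissue, fewer cells of a type and less RNA per cell cannot be told apart.

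**Figure D1:**
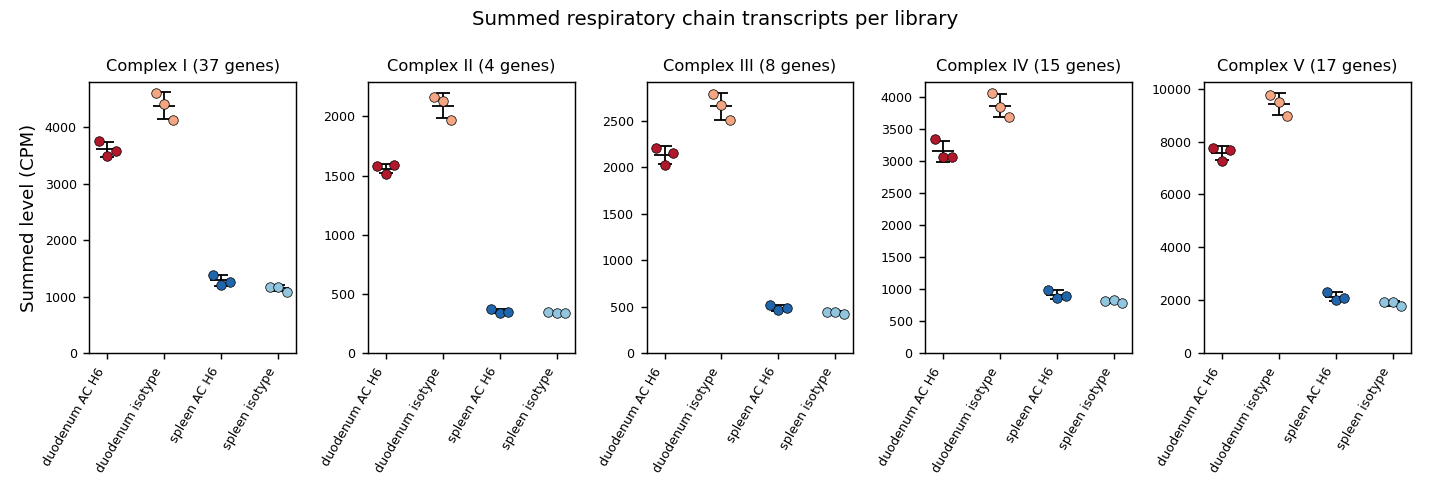
Summed level of the members of each complex in each library, in CPM on a linear axis from 0. Points are libraries, and horizontal ticks with bars are mean ± SD of 3 libraries. In every complex the 3 duodenum AC H6 points lie below the 3 duodenum isotype points, and all spleen points lie below both.

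By the quasi-likelihood test of edgeR, with p-values adjusted by Benjamini-Hochberg over all 15667 genes tested, 59 of 80 members tested fell in the duodenum under AC H6 and 0 rose, where 16.1% of all genes fell and 18.5% rose. Cox6a2 was too low in the duodenum to be tested. At an unadjusted p under 0.05, 66 members were lower and 0 higher, and over all genes 3400 were lower and 3712 higher. The AC H6 libraries all lay below the isotype libraries for 67 members and all above them for 1, Cox4i2, where 26.3% of all genes were lower and 23.7% higher without overlap. Of the 80 members 78 were below 0, where 48.8% of all genes were. The median log2 fold change of the members was -0.26, beside 0.0083 over all genes tested. The changes were small and alike, with the 59 called members between -0.56 and -0.20 on the log2 scale. The count of members that fell was 31 without AC H6 replicate 2, 38 without isotype replicate 1 and 17 when libraries were scaled by their total counts alone. Isotype replicate 1 and AC H6 replicate 2 also held the most counts on the ribosomal RNA row Rn45s among the duodenum libraries, at 1.18% in AC H6 replicate 2 and 7.56% in isotype replicate 1, against 0.0880% to 0.206% in the other AC H6 libraries and 0.124% to 0.146% in the other isotype libraries. With Rn45s and other abundant rows left out, 59 members fell, and its part in the counts without these libraries was not tested.

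Complex II fell as a whole, with 4 of 4 genes called. Sdha, the flavoprotein that oxidises succinate (GRCm38 chr13:74322254-74350280, minus strand), had 722, 709.7 and 746 CPM under AC H6 and 1031, 1028 and 952 CPM under isotype. The lowest isotype library was above the highest AC H6 library by a wide margin, and the log2 fold change was -0.44 ± 0.054 (SE, edgeR adjusted p = 0.000653), the smallest adjusted p among the members. Sdhb, the iron-sulphur subunit, had 289.8, 272 and 284 CPM under AC H6 and 388, 372 and 346 CPM under isotype, a log2 change of -0.36 ± 0.063. The 2 membrane anchors followed. Sdhc averaged 233 ± 9.23 CPM under AC H6 and 300.03 ± 25.1 CPM under isotype (SD, n = 3 each), and Sdhd averaged 318 ± 8.08 CPM under AC H6 and 417 ± 26.8 CPM under isotype. The groups did not overlap for either gene.

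In complex I, 25 of 37 genes fell, with a median log2 change of -0.25. Of the 7 core subunits, which carry the flavin and the iron-sulphur clusters, 6 fell, and Ndufs7 with -0.21 ± 0.086 was not called (adjusted p = 0.0949). Ndufs1, the largest core subunit, had 182, 173 and 188 CPM under AC H6 and 241, 256 and 228 CPM under isotype, with a log2 change of -0.39 ± 0.067 (adjusted p = 0.00302). Of the 30 other genes of complex I, 19 fell. Among these accessory genes Ndufb10 had the smallest adjusted p, with 126, 121 and 118 CPM under AC H6, 176, 173 and 155 CPM under isotype and a log2 change of -0.44 ± 0.072 (adjusted p = 0.00240). The 12 genes of complex I that were not called included Ndufa1, Ndufa2, Ndufa3, Ndufa7, Ndufa11, Ndufa13 and Ndufb7, whose log2 values ran from -0.16 in Ndufa3 to -0.0013 in Ndufa2. Ndufa2 overlaps Tmco6 on the other strand, so its count may hold reads of both genes.

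In complex III, 7 of 8 genes fell, and Uqcrb with -0.18 ± 0.067 did not pass (adjusted p = 0.0708). Uqcrfs1, the Rieske iron-sulphur protein that passes electrons on towards cytochrome c (chr13:30540308-30545362, minus strand), had 316, 289 and 311 CPM under AC H6 and 459, 420.1 and 391 CPM under isotype. The groups were far apart, with a log2 change of -0.45 ± 0.073 (adjusted p = 0.00241). Uqcrc2, one of the 2 core proteins of the complex, had 415, 392 and 432 CPM under AC H6 and 585, 559 and 529 CPM under isotype, with a log2 change of -0.41 ± 0.063. Uqcr11, a small subunit whose promoter is shown above, changed by -0.24 ± 0.075 (adjusted p = 0.0356).

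In complex IV, 11 of 14 tested genes fell. The greatest fall of any member was that of Cox7a1 (chr7:30184144-30186078, plus strand), which had 49.4, 42.0 and 43.8 CPM under AC H6 and 73.3, 63.7 and 65.3 CPM under isotype, a log2 change of -0.56 ± 0.076 (adjusted p = 0.00109). Its partner isoform Cox7a2 changed by -0.29 ± 0.060. Cox7b, a small subunit of the complex, had 239.8, 225 and 233 CPM under AC H6 and 320.2, 302 and 296 CPM under isotype, with a log2 change of -0.37 ± 0.061 (adjusted p = 0.00247). The 3 genes not called were Cox6a1 at -0.17 ± 0.073 and the rare isoforms Cox4i2 at 0.47 ± 0.21 and Cox6b2 at 0.35 ± 0.19. Cox4i2, the isoform of subunit 4 linked to low oxygen, had only 36, 27 and 31 counts under AC H6 and 13, 22 and 17 counts under isotype.

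In complex V, 12 of 17 genes fell, among them 3 of the 5 subunits of the F1 head and 8 of 10 subunits of the stalk and membrane part. Atp5c1, the gamma subunit that turns inside the head, had 427, 401 and 429 CPM under AC H6 and 589, 560.1 and 543 CPM under isotype, with a log2 change of -0.41 ± 0.058 (adjusted p = 0.00135). Atp5b, the catalytic beta subunit and the member with the highest level per kilobase (chr10:128083273-128090391, plus strand), had 2204, 2142 and 2280.2 CPM under AC H6 and 2856, 2824 and 2662 CPM under isotype, a log2 change of -0.31 ± 0.048. The groups did not overlap for either subunit. Atp5g3, the most abundant of the 3 genes that encode the same c-ring protein, changed by -0.36 ± 0.072, while Atp5g2, another of them, was at -0.084 ± 0.075 and not called (adjusted p = 0.415). Of the 50-base stretches of Atp5g2, 87.4% also occur in other annotated genes, so its count is uncertain. Atp5e at -0.077 ± 0.076 and Atp5k at -0.11 ± 0.074 were not called either.

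**Figure D2:**
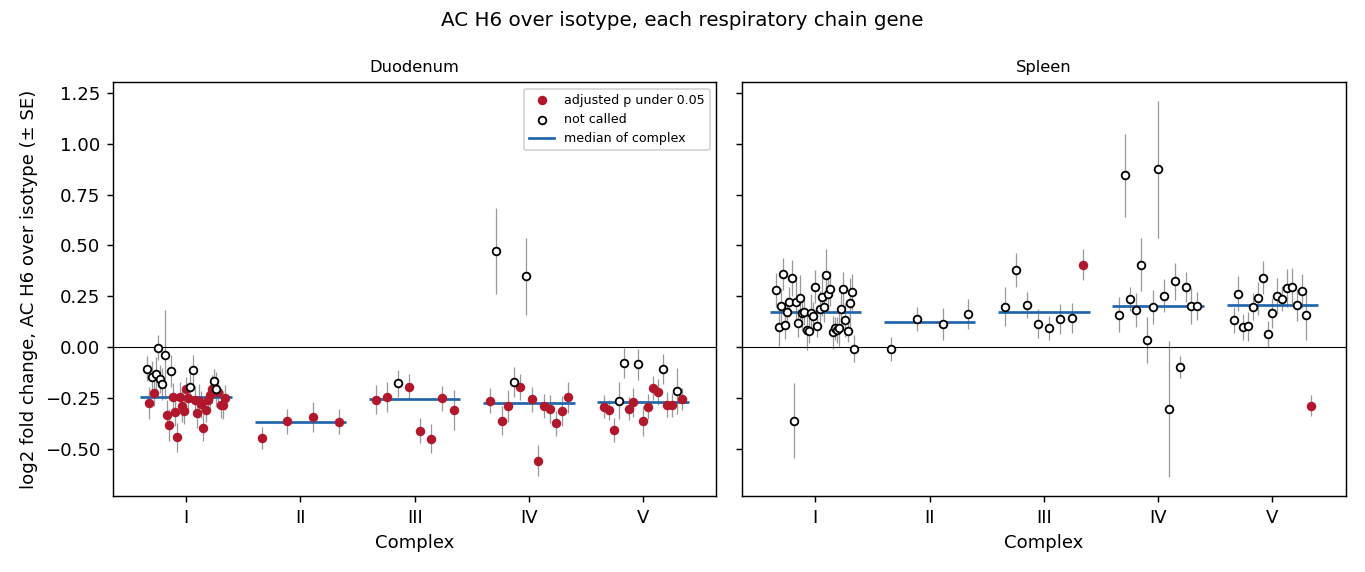
Log2 fold change of AC H6 over isotype for each tested member, by complex, in duodenum and in spleen. Points are genes with ± SE from edgeR, filled where the adjusted p was under 0.05, and blue lines are the median of each complex. In duodenum 78 of 80 points lie below 0 and 59 are filled, and in spleen 75 of 81 lie above 0 and 2 are filled.

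Other groups of mitochondrial genes were read against the same shares of all genes, 16.1% that fell and 18.5% that rose. All 7 electron carriers and subunits outside the name pattern fell, among them Etfa, an electron transfer flavoprotein subunit, at -0.40 ± 0.061, and Cyc1, cytochrome c1 of complex III, at -0.38 ± 0.062. Of 14 citric acid cycle genes 11 fell and 0 rose, with a median of -0.29. Idh3b, a subunit of isocitrate dehydrogenase, changed by -0.43 ± 0.068, and Fh1, fumarase, by -0.36 ± 0.061. Of 50 genes of the mitochondrial ribosome 11 fell, a share not far from that of all genes, and 0 rose. Of these 50 genes 40 were below 0, where 48.8% of all genes were, and the median was -0.11.

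Among 29 assembly factors of the chain, 12 fell and 1 rose. The gene that rose was Sdhaf1, which helps to insert the iron-sulphur clusters of Sdhb. Sdhaf1 averaged 32.6 ± 1.70 CPM under AC H6 and 12.7 ± 1.07 CPM under isotype (SD, n = 3 each), a log2 change of 1.39 ± 0.076 (edgeR adjusted p = 1.23e-05), while all 4 subunits of complex II fell. Atpaf1, an assembly factor of the F1 head, changed by -0.41 ± 0.052. Of 12 regulators of mitochondrial biogenesis 5 fell and 1 rose. Gabpb1, the other GABP subunit, rose at 0.22 ± 0.065. Those that fell were Tfb2m, a mitochondrial transcription factor, at -0.21 ± 0.070, the coactivators Ppargc1a at -0.38 ± 0.088 and Ppargc1b at -0.55 ± 0.12, the nuclear receptor Esrra at -0.31 ± 0.076 and Gabpa, a GABP subunit, at -0.24 ± 0.046. Gabpa overlaps Atp5j on the other strand.

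Markers of enterocytes, the absorptive cells, mostly fell, but not all in 1 direction. Of 8 enterocyte markers 5 fell and 2 rose, while 0 of 80 members rose. The median log2 change was -0.26 for these markers and -0.26 for the members. Their summed level was 30259 to 31964 CPM in the AC H6 libraries and 33493 to 34664 CPM in the isotype libraries. Sis, the brush border sucrase, changed by -0.66 ± 0.089 and Fabp1, a fatty acid binding protein, by -0.61 ± 0.083, while the apolipoprotein Apoa4 changed by 0.27 ± 0.064. The 3 goblet cell markers summed to 6104 to 6749 CPM under AC H6 and 6882 to 7062 CPM under isotype, and 1 of them, Clca3, fell at -0.41 ± 0.075. Of the immune markers tested, 2 of 4 neutrophil markers and 1 of 5 T cell markers rose and 0 of 4 B cell markers passed (1 at an unadjusted p under 0.05), while of 3 Paneth cell markers 1 rose and 1 fell. With the mean log2 level of the 8 markers as a covariate, an alternative chosen after seeing the data, 0 members passed, the members' median was -0.039, and 40 genes passed in all, while without it 2899 genes rose and 2529 fell. Beyond this fit, the part of these markers in the result was not tested. Pancreatic acinar markers summed to 33.4, 3309 and 40165 CPM in single AC H6 libraries and to 28.7, 165 and 10235 CPM in single isotype libraries, and with their score as a covariate 56 members fell. Defining brain markers stayed low in both tissues, at 44.1 to 81.5 CPM in sum, although an extraction note in the labels speaks of brain.

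In the spleen 1 member rose and 1 fell under AC H6 among 81 tested, where 2.06% of all 15270 genes rose and 1.92% fell. Uqcrq, a small subunit of complex III (chr11:53427922-53430831, minus strand), had 31.3, 28.5 and 29.6 CPM under AC H6 and 22.7, 24.3 and 20.6 CPM under isotype, with a log2 change of 0.40 ± 0.076 (edgeR adjusted p = 0.0382). Atp5sl, which is annotated now as Dmac2, a complex I assembly protein (chr7:25619414-25625551, plus strand), had 48.3, 50.9 and 49.7 CPM under AC H6 and 63.0, 59.9 and 59.3 CPM under isotype, a log2 change of -0.29 ± 0.052 (adjusted p = 0.0359). The groups did not overlap for either gene. Neither call held when any library other than AC H6 replicate 2 was left out, and without AC H6 replicate 2 the counts were 8 higher and 1 lower. The next genes by adjusted p were Ndufa12, an accessory subunit of complex I, at 0.36 ± 0.078 (adjusted p = 0.0508), and Uqcr11 at 0.38 ± 0.083 (adjusted p = 0.0511).

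The other spleen values were small and leaned upward on the scaled levels. Of 81 members 75 were above 0, where 49.8% of all genes were, and the median was 0.19. At an unadjusted p under 0.05, 37 members were higher and 1 lower, where 14.6% of all genes were higher. DESeq2 called 11 members higher and 1 lower, and the shares of all genes given here are those of edgeR and not of DESeq2. The summed level was 5582, 4875 and 5043 CPM under AC H6 and 4682, 4721 and 4408 CPM under isotype. The groups did not overlap, but the lean depends on the scaling. As a plain share of all counts, members made up 0.543% to 0.580% under AC H6 and 0.543% to 0.594% under isotype. Library totals as the only scaling were an alternative chosen after seeing the data. With them the median of the members was -0.026 and that of all genes -0.21. A change of scaling shifts all genes by nearly the same amount. The distance of the members from all genes, 0.19 under both scalings, is therefore nearly fixed by construction and is no check.

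Red cell and neutrophil markers were above 0 in the spleen, as most members were. Haemoglobin took 13.4% to 24.3% of counts under AC H6 and 6.58% to 16.3% under isotype. All 8 erythroid markers measured were above 0, with a median of 1.12, and 0 of them passed (5 at an unadjusted p under 0.05). All 7 neutrophil markers rose, between 1.44 and 1.56 on the log2 scale. Of 5 T cell markers 3 fell, and of 5 B cell markers 1 fell, with medians of -0.43 and -0.29. With the erythroid score as a covariate 0 members passed in either direction and their median was 0.085. Beyond this fit, the part of the red cell and neutrophil markers in the spleen values was not tested. Of the lists of other mitochondrial genes, 1 of 7 electron carriers and related subunits rose, Cycs, cytochrome c, at 0.31 ± 0.063 (edgeR adjusted p = 0.0438). Among the citric acid cycle, assembly, ribosome and regulator genes 0 passed. At an unadjusted p under 0.05 they held 4 of 14, 4 of 29, 16 of 50 and 1 of 12 genes, beside 4260 of all 15270 genes tested.

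The 2 tissues differed in the response of the chain. The difference between the AC H6 effect in duodenum and that in spleen was tested as an interaction over 12 libraries. It was below 0 and called for 64 of 81 members and above 0 and called for 1, where 9.13% of all 16655 genes were called below 0 and 10.9% above it. Of these 64 genes 55 had also fallen in the duodenum alone. The median over members was -0.47, and 29 of 37 genes of complex I, 4 of 4 of complex II, 8 of 8 of complex III, 10 of 15 of complex IV and 13 of 17 of complex V were called below 0. Uqcrq had the lowest value at -0.73 ± 0.13 (adjusted p = 0.00273), followed by Ndufb9 at -0.69 ± 0.16 and Cox7b at -0.69 ± 0.091. Cox7a1 with -0.27 ± 0.31 and Atp5sl with 0.013 ± 0.081 were not called. With library totals as the only scaling the median of all genes moved to 0.29, the median of members was -0.15, and 0 members were called below 0. Members then stood -0.45 from all genes, against -0.46 with the TMM scaling, a distance that a change of scaling leaves nearly fixed by construction.

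Cox6a2, the muscle and heart isoform of subunit 6a (chr7:128205435-128206387, minus strand), was the member called above 0 in this test, at 1.41 ± 0.45 (adjusted p = 0.0442). It had 18, 7 and 12 counts in the duodenum libraries under AC H6 and 4, 2 and 4 counts under isotype, so that the value rests on very few reads. It passed the filter on low counts through the spleen libraries. The gene overlaps Itgad on the other strand, and the library kit named in the labels does not mark strand. The call was absent with limma-voom, with the replicate block and in 8 of the 12 fits that left out 1 library.

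Between tissues the chain was far more abundant in the duodenum. Under isotype antibody 77 of 81 members were higher in duodenum than in spleen and 4 were lower, where 42.2% of 16029 genes were higher and 43.8% lower. The summed level was 4.87 times that of spleen, at 22415 ± 1083 CPM in duodenum and 4604 ± 171 CPM in spleen (SD, n = 3 each). Under AC H6, 74 members were higher and 3 lower, where 42% of 16448 genes were higher and 42.7% lower. The summed level was 3.49 times that of spleen, at 18019.7 ± 640.05 CPM in duodenum and 5166 ± 369 CPM in spleen. The median log2 difference was 1.67 under AC H6 and 2.15 under isotype. With library totals as the only scaling, 74 members were higher and 3 lower under AC H6 and 74 higher and 5 lower under isotype, while the median of all genes moved to -0.29 under AC H6 and -0.61 under isotype and that of members to 1.41 under AC H6 and 1.58 under isotype. All 8 enterocyte markers were higher in duodenum, where their sum was 30259 to 34664 CPM against 30.9 to 41.9 CPM in spleen, and all 5 B cell and 5 T cell markers were lower, under both treatments.

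**Figure D3:**
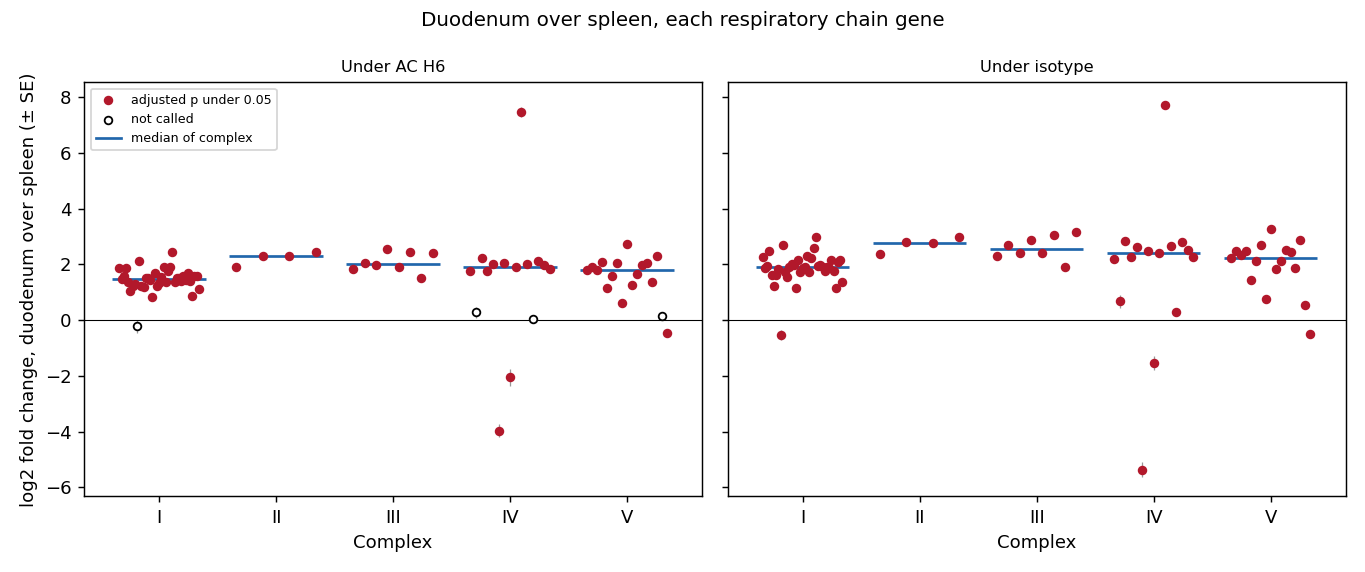
Log2 difference of duodenum over spleen for each member, by complex, under AC H6 and under isotype. Points are genes with ± SE from edgeR, filled where the adjusted p was under 0.05, and blue lines are the median of each complex. Cox7a1 stands far above the other points and Cox6a2 and Cox6b2 far below them under both treatments.

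The tissue difference was not equal across complexes. Under isotype the median log2 difference was 1.91 in complex I, 2.79 in complex II, 2.56 in complex III, 2.42 in complex IV and 2.23 in complex V. As shares of the chain's level per kilobase of transcript, complex I made up 22.1 ± 0.187% in duodenum and 27.6 ± 0.183% in spleen under isotype (SD, n = 3 each). Complex II made up 4.89 ± 0.0922% in duodenum and 3.58 ± 0.124% in spleen, and complex III 12.1 ± 0.0684% in duodenum and 10.6 ± 0.164% in spleen. Complex IV made up 26.2 ± 0.248% in duodenum and 24.3 ± 0.276% in spleen, and complex V 34.7 ± 0.190% in duodenum and 33.9 ± 0.263% in spleen. The libraries of the tissues did not overlap in any of the 5 shares. Within the duodenum the share of complex II was 4.51 ± 0.115% under AC H6 and 4.89 ± 0.0922% under isotype. These shares depend on the transcript length taken for each gene.

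After Cox7a1, the greatest log2 differences of duodenum over spleen under isotype were those of Atp5g3 at 3.29 ± 0.091, Uqcrq at 3.15 ± 0.10, Uqcrfs1 at 3.06 ± 0.073, Sdhd at 2.98 ± 0.061 and Ndufc1 at 2.98 ± 0.096. Ndufc1, a small accessory subunit, led complex I, followed by Ndufa5 at 2.70 ± 0.086 and Ndufb9 at 2.60 ± 0.10. The 3 lowest of complex I were Ndufa4l2, below 0 at -0.52 ± 0.17, Ndufb11 at 1.16 ± 0.059 and Ndufs8 at 1.17 ± 0.061. Cox7a2l had 199, 194 and 193 CPM in duodenum and 157, 156 and 162 CPM in spleen under isotype, a difference of 0.28 ± 0.042 (adjusted p = 0.000328). Its direction turned to -0.29 with library totals as the only scaling, and likewise Atp5s at 0.53 ± 0.11 turned to -0.032. Atp5sl was lower in duodenum under both treatments, with 43.0, 47.0 and 42.7 CPM in duodenum and 63.0, 59.9 and 59.3 CPM in spleen under isotype, and a difference of -0.48 ± 0.060.

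The isoforms of complex IV split the 2 tissues. Cox7a1 had 73.3, 63.7 and 65.3 CPM in duodenum and 0.341, 0.285 and 0.306 CPM in spleen under isotype, a log2 difference of 7.75 ± 0.12. In this fit Cox7a1 passed the filter on low counts through the duodenum, so its call as higher there is no evidence beyond these levels. The spleen values stand for 6, 12 and 9 counts under isotype, and the AC H6 spleen libraries held 7, 15 and 7 counts. Per kilobase, Cox7a1 made up 31.7, 29.0 and 29.6% of the sum of Cox7a1 and Cox7a2 in duodenum under AC H6 and 35.6, 32.8 and 34.2% under isotype. In spleen it made up 0.547, 1.30 and 1.17% under AC H6 and 1.61, 1.34 and 1.59% under isotype. In both tissues the AC H6 shares lay below the isotype shares with no overlap. This share is a description and was not tested.

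Cox6a2 and the testis isoform Cox6b2 ran the other way. Cox6a2 had 0.205, 0.0692 and 0.157 CPM in duodenum and 5.96, 6.28 and 4.90 CPM in spleen under isotype, a log2 difference of -5.37 ± 0.28. It passed the filter on low counts through the spleen alone, so its call as lower in duodenum is no evidence beyond these levels. Cox6a2 made up 3.85, 5.29 and 4.60% of its pair with Cox6a1 in spleen under AC H6 and 5.97, 5.67 and 5.59% under isotype. Cox6b2 had 1.44, 2.04 and 1.65 CPM in duodenum and 6.25, 5.23 and 3.37 CPM in spleen under isotype, a log2 difference of -1.53 ± 0.25. In spleen Cox6b2 varied widely between libraries, at 12.8, 5.50 and 8.44 CPM under AC H6 and 6.25, 5.23 and 3.37 CPM under isotype. The spleen groups overlapped and the change of 0.87 ± 0.34 was not called (adjusted p = 0.150).

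**Figure D4:**
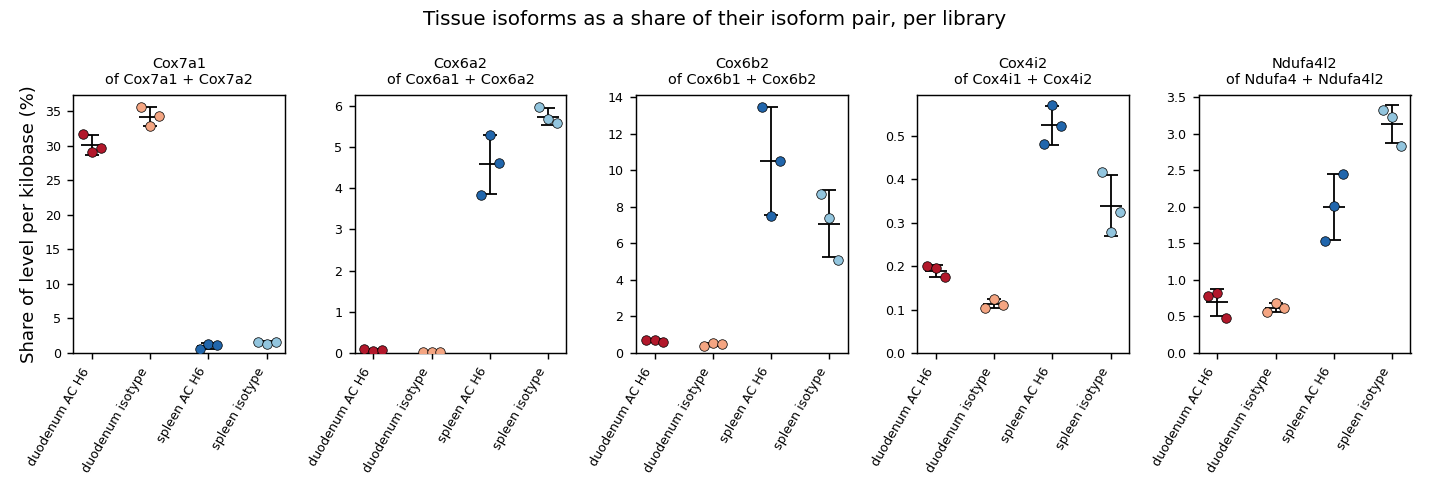
Share of the tissue isoform in the level per kilobase of its pair, in percent on a linear axis from 0, for each library. Points are libraries, and horizontal ticks with bars are mean ± SD of 3 libraries. Cox7a1 holds 29.0% to 35.6% of its pair in duodenum and under 2% in spleen, while the other 4 rare isoforms hold a greater share in spleen.

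The rarer isoforms of the other subunits were also a greater part of their pair in spleen. Ndufa4l2, a relative of Ndufa4 known to be induced at low oxygen, made up 0.781, 0.819 and 0.484% in duodenum under AC H6 and 0.564, 0.684 and 0.612% under isotype, against 1.54, 2.01 and 2.44% in spleen under AC H6 and 3.32, 3.23 and 2.84% under isotype. It overlaps Shmt2 on the other strand. As mean ± SD of 3 libraries, Cox4i2 made up 0.190 ± 0.0137% of its pair in duodenum under AC H6 and 0.113 ± 0.0108% under isotype, against 0.525 ± 0.0450% in spleen under AC H6 and 0.340 ± 0.0708% under isotype. In both tissues the AC H6 shares of Cox4i2 were above the isotype shares with no overlap, from 9 to 39 counts a library. The level of Cox4i2 itself was higher in duodenum under isotype, at 0.667, 0.761 and 0.668 CPM, against 0.511, 0.381 and 0.442 CPM in spleen. Of the c-ring genes, Atp5g3 made up 84.2, 82.6 and 82.8% in duodenum and 51.2, 49.8 and 47.9% in spleen under isotype, and Atp5g2 13.3, 14.4 and 14.5% in duodenum and 46.4, 47.7 and 49.6% in spleen. These c-ring shares depend on the length taken for Atp5g1, whose transcripts run from 596 to 4715 bases.

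Most other mitochondrial gene groups were higher in duodenum as well under isotype, where 42.2% of all genes were higher and 43.8% lower. All 14 citric acid cycle genes and all 7 electron carriers and related subunits were higher, with medians of 2.34 and 2.47 on the log2 scale. Of 50 mitochondrial ribosome genes 46 were higher and 1 lower, with a median of 0.71, and of 29 assembly factors 22 were higher and 2 lower, with a median of 0.88. The biogenesis regulators did not follow, with 3 of 12 higher and 4 lower, both below the shares of all genes. The 3 that were higher were Ppargc1a at 5.43 ± 0.15, Esrra at 3.22 ± 0.066 and Ppargc1b at 2.15 ± 0.12. The 4 that were lower were Nrf1 at -0.87 ± 0.067, Pprc1 at -0.86 ± 0.11, Gabpb1 at -0.61 ± 0.079 and Yy1 at -0.19 ± 0.070.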

How the data were processed

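RNA of spleen and duodenum was sequenced in 12 libraries. The mm10 build and the tools STAR 2.3, bcl2fastq 2.19, edgeR and Trimmomatic are named in the submitters' processing notes, without their roles. Neither the counting tool nor its annotation is given in the sources used here. Each library has 1 deposited table of raw counts per gene, in which, per the file headers, reads with several matches are kept. The kit named in the labels does not mark strand, so genes that overlap on opposite strands cannot be separated.

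From these counts, genes were filtered with filterByExpr and tested with edgeR 4.0.16 (R 4.3.3, limma 3.58.1), using TMM scaling, the quasi-likelihood test and Benjamini-Hochberg adjustment over all genes, with calls at an adjusted p under 0.05. Each comparison was fitted on its own groups and the interaction on all 12 libraries. The steps were tested on simulated data. CPM values come from a TMM scaling over all 12 libraries, while each comparison was scaled over its own libraries. Ratios of CPM and tested log2 changes can therefore differ slightly. Levels per kilobase use the longest RefSeq-matched coding transcript of GENCODE M21 (GRCm38), in which 80 members matched by symbol and 1, Atp5sl, by an older symbol. Of the members, 4 share over 50% of their 50-base stretches with other genes and 20 overlap another coding gene. Replicates differed by more than sampling noise (chi-square per degree of freedom from 24.6 to 243.4).

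The members and lists were chosen with earlier results of these data known. The single value of 1 member is not reported here. Genes named are those called in a treatment comparison or the interaction, the 3 most extreme per complex between tissues, all of complex II, the isoform sets, the members highest per kilobase or nearest the count minimum, and up to 3 per list by smallest p. Other members given as not called, further regulators, and the markers singled out were chosen after their values were seen. Replicate numbers are shared by all groups, and same-numbered libraries deviated together in all 3 pairs between tissues under isotype (r across genes of 0.235, 0.411 and 0.151). Alternatives covered scaling, filters, DESeq2 1.42.0, limma-voom, the replicate block, abundant rows, 1 joint fit, marker covariates and leaving out each library.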

Additional observations from a re-analysis of the deposited data

Results flagged for a closer look

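The response to AC H6 differed between the tissues for 65 members, by edgeR's test of the difference itself (AC H6 minus isotype in duodenum, minus AC H6 minus isotype in spleen, log2 scale, adjusted p under 0.05). The values follow by complex, and their part in any other difference between the tissues was not tested. In complex I, the entry point for electrons of NADH, 29 genes were below 0, among them Ndufb9 at -0.69, Ndufa12 at -0.60, Ndufc2 at -0.59, Ndufv2 at -0.57, Ndufa5 at -0.57, Ndufc1 at -0.55, Ndufb10 at -0.54, Ndufa4 at -0.54, Ndufb4 at -0.52, Ndufv1 at -0.52, Ndufa6 at -0.52, Ndufa9 at -0.51, Ndufs1 at -0.49, Ndufb3 at -0.49, Ndufb8 at -0.47, Ndufb2 at -0.47, Ndufs6 at -0.47, Ndufa8 at -0.43, Ndufs5 at -0.41, Ndufa1 at -0.41, Ndufb6 at -0.40, Ndufa3 at -0.40, Ndufa10 at -0.39, Ndufb5 at -0.38, Ndufs3 at -0.37, Ndufs4 at -0.35, Ndufb11 at -0.35 and Ndufs8 at -0.32. In complex II, succinate dehydrogenase, 4 genes were below 0: Sdhd at -0.55, Sdhb at -0.52, Sdhc at -0.47 and Sdha at -0.46. In complex III, the cytochrome c reductase, 8 genes were below 0: Uqcrq at -0.73, Uqcr11 at -0.64, Uqcrfs1 at -0.61, Uqcrc2 at -0.52, Uqcr10 at -0.47, Uqcrh at -0.41, Uqcrb at -0.40 and Uqcrc1 at -0.33. In complex IV, the cytochrome c oxidase, 10 genes were below 0: Cox7b at -0.69, Cox7a2 at -0.63, Cox5a at -0.61, Cox6a1 at -0.60, Cox7c at -0.53, Cox6c at -0.53, Cox5b at -0.49, Cox8a at -0.47, Cox4i1 at -0.44 and Cox6b1 at -0.41. In complex V, ATP synthase, 13 genes were below 0: Atp5g1 at -0.63, Atp5b at -0.59, Atp5o at -0.58, Atp5h at -0.56, Atp5f1 at -0.56, Atp5g3 at -0.55, Atp5j2 at -0.53, Atp5c1 at -0.52, Atp5l at -0.51, Atp5j at -0.46, Atp5a1 at -0.44, Atp5k at -0.42 and Atp5d at -0.38. Above 0 stood Cox6a2 at 1.41, on 2 to 18 counts in each duodenum library. With library totals as the only scaling, 0 of the negative values were called, and the median of all genes moved to 0.29.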

How the results depend on the processing

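The DESeq2-style size factors left the counts of members within 1.5 times those of the main analysis in every comparison but the spleen one, where 2 rose in place of 1. In the spleen, 2 members also rose with the stricter filter on low counts, 11 with DESeq2 and 14 with 1 fit of all 12 libraries. There 0 rose and 0 fell with library totals as scaling, with the replicate block and with the erythroid score as a covariate. Leaving out 1 spleen library gave 0 to 8 members higher and 0 to 1 lower. In the duodenum, 17 members fell with library totals as scaling, 0 with the enterocyte score as a covariate and 31 to 54 with 1 library left out, while 1 member rose in 1 fit of all 12 libraries. Leaving out 1 library of the tissue comparison gave 76 to 77 members higher and 3 to 4 lower under isotype, and 74 higher and 3 lower under AC H6. In the interaction, 0 members were called below 0 with library totals as scaling, 0 were called above 0 with limma-voom, and 51 to 68 were called below 0 and 0 to 1 above 0 with 1 library left out. The enterocyte score, library totals and shortest transcript lengths were alternatives chosen after seeing the data.

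Same-numbered libraries did not deviate together in all 3 pairs of the AC H6 comparisons or the tissue comparison under AC H6. The interaction was not checked in this way. With the replicate block, 62 members fell in the duodenum, 0 passed in the spleen, 74 were higher and 3 lower between tissues under AC H6, and the interaction gave 70 members below 0 and 0 above. Between tissues under isotype, where same-numbered libraries deviated together in all 3 pairs, the block gave 76 higher and 4 lower.

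With the enterocyte score as a covariate, the duodenum log2 change turned sign in 24 genes, which were Atp5g2 at 0.17, Atp5g3 at 0.064, Cox5b at 0.16, Cox6a1 at 0.065, Cox6b2 at -0.090, Cox7c at 0.086, Cox8a at 0.24, Ndufa12 at 0.030, Ndufa4 at 0.11, Ndufb11 at 0.10, Ndufb2 at 0.31, Ndufb3 at 0.012, Ndufb4 at 0.014, Ndufb8 at 0.0087, Ndufb9 at 0.022, Ndufc1 at 0.21, Ndufs5 at 0.00049, Ndufs8 at 0.057, Ndufv3 at 0.0057, Sdhc at 0.060, Uqcr10 at 0.12, Uqcr11 at 0.016, Uqcrc1 at 0.017 and Uqcrq at 0.35. With library totals as scaling, the spleen change turned sign for Atp5g2 at -0.15, Atp5g3 at -0.046, Cox4i1 at -0.060, Cox6a2 at -0.16, Cox6b1 at -0.023, Cox8a at -0.011, Sdhb at -0.072, Sdhc at -0.11, Sdhd at -0.055 and Uqcrh at -0.077. So did the duodenum change for Ndufa4l2 at 0.046. The same scaling turned the sign of the tissue difference under isotype for Atp5s at -0.032 and Cox7a2l at -0.29. It turned that under AC H6 for Cox7a2l at -0.21. It turned the interaction for Atp5g2 at 0.15, Cox7a1 at 0.019 and Cox7a2l at 0.088. In the spleen change, Cox6a2 at -0.10 turned sign with the erythroid score as a covariate. Over the fits with 1 library left out, Sdha ran from -0.047 to 0.020 and Cox6a2 from -0.064 to 0.12 in the spleen, and Ndufa4l2 ran from -0.16 to 0.16 in the duodenum and from -0.34 to 0.0031 between tissues under AC H6. Sdha turned sign without AC H6 replicate 2 or 3 or isotype replicate 3, Cox6a2 without isotype replicate 3, and Ndufa4l2 without duodenum AC H6 replicate 3 in both comparisons and without duodenum isotype replicate 2 in the treatment one. For these reversals the cause was not tested.

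With the shortest annotated transcript as length, shares moved by construction. Complex I then made up 24.1% in duodenum AC H6, 23.6% in duodenum isotype, 28.9% in spleen AC H6, 28.9% in spleen isotype. Complex II then made up 4.29% in duodenum AC H6, 4.66% in duodenum isotype, 3.16% in spleen AC H6, 3.39% in spleen isotype. Complex III then made up 11.5% in duodenum AC H6, 11.5% in duodenum isotype, 9.96% in spleen AC H6, 10.04% in spleen isotype. Complex IV then made up 25.1% in duodenum AC H6, 25.1% in duodenum isotype, 23.7% in spleen AC H6, 23.4% in spleen isotype. Complex V then made up 35.1% in duodenum AC H6, 35.1% in duodenum isotype, 34.3% in spleen AC H6, 34.2% in spleen isotype. Cox6b2 then made up 0.949% in duodenum AC H6, 0.644% in duodenum isotype, 13.9% in spleen AC H6, 9.50% in spleen isotype. Atp5g2 then made up 13.7% in duodenum AC H6, 11.7% in duodenum isotype, 38.1% in spleen AC H6, 40.7% in spleen isotype. Atp5g3 then made up 67.8% in duodenum AC H6, 70.2% in duodenum isotype, 43.0% in spleen AC H6, 42.7% in spleen isotype. Atp5g1 then made up 18.5% in duodenum AC H6, 18.04% in duodenum isotype, 18.8% in spleen AC H6, 16.6% in spleen isotype.

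Depth limits the low isoforms: Cox6a2 in duodenum, Cox7a1 in spleen and Cox4i2 in both tissues rest on few counts, and the smallest called change in the duodenum was -0.20 on the log2 scale.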
